A study of Mus musculus with 26 samples.

Results

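Transcript levels in mouse embryonic stem cells depleted of Mettl3 were compared between the 8 h and the 0 h time point. The members were the arrays titled as Mettl3 KD at 8h and at 0h without the extra code that marks a repeat set, which gave 2 arrays at each time and 4 of the 26 arrays of the series. The other 22 arrays were 2 of the same knockdown at 4 h, 6 of a Mettl14 knockdown and 6 of a scramble control over the same times, and 8 of the repeat set at 0 h only. All samples came from J1, an established mouse embryonic stem cell line, grown on irradiated mouse embryonic fibroblasts in serum with leukaemia inhibitory factor (LIF). Their poly(A) RNA was measured on Affymetrix Mouse Gene 2.0 ST arrays.

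The groups were Mettl3 KD at 0 h, Mettl3 KD at 8 h, Mettl3 KD at 4 h, and the scramble and Mettl14 KD arrays at 0 h and 8 h, each with 2 arrays numbered as biological replicates. The 0 h cells were therefore already depleted, and the comparison of 8 h with 0 h is one of time within the depleted cells. The labels describe the depletion in 2 ways, as puromycin-selected lines carrying a lentiviral short hairpin and as 2 rounds of small interfering RNA transfection in J1 cells. They do not say which was used for which array, and they do not say what the cells were kept in for the 0, 4 or 8 h. The question, as the series title frames it, was whether RNA methylation alters how long transcripts of developmental regulators last.

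Mettl3 is the catalytic subunit of the complex that places N6-methyladenosine on messenger RNA, and Mettl14 is its RNA-binding partner. Reader proteins that bind the mark can speed the decay of the message, and in embryonic stem cells the mark is known on transcripts of pluripotency and developmental regulators. Messages differ widely in lifetime: those of immediate early factors, of the feedback inhibitors of growth factor signalling and of replication-dependent histones turn over fast, whereas those of ribosomal proteins and of metabolic enzymes are long-lived.

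The labels give the stretches of the Mettl3 message that the small interfering RNAs were designed against, shown here because they are the designed reagent behind the depletion. Each is 19 bases long and is written 5′ to 3′ in DNA letters.
Mettl3 target 1: ggactgcgatgtgattgta
Mettl3 target 2: gacgaattatcaataagca

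The targeted transcript was read by 1 probe set, which the platform annotation also lists for the neighbouring gene Tox4. Values throughout are log2 RMA signals, the summarised and quantile-normalised brightness of a gene's probes, and are relative to the array as a whole. The probe set of Mettl3 and Tox4 read 9.09 and 9.20 at 0 h, 8.53 and 8.12 at 4 h, and 8.04 and 8.02 at 8 h in the knockdown, against 11.05 and 11.03 in scramble at 0 h. It was 26.9% of the scramble signal at 0 h and fell further by 8 h, to 46.1% of the 0 h signal (log2 change −1.12 ± 0.10, adjusted p = 2.46e-06). The same probe set also fell over 8 h without Mettl3 depletion, to 77.7% in scramble (−0.36 ± 0.10) and to 79.3% in the Mettl14 knockdown (−0.33 ± 0.10). In the Mettl3 knockdown every 8 h array lay below every 0 h array. Of the 14787 genes tested, 3940 showed the same and 7277 the reverse, so a lack of overlap sets no gene apart. The probe set that the annotation lists for Tox4 alone did not pass the test (0.08 ± 0.06, adjusted p = 0.299). Mettl14 did not pass it either, at 8.997 and 8.994 at 0 h and 8.929 and 8.937 at 8 h (−0.06 ± 0.13, adjusted p = 0.72). Here and below, ± is the standard error from limma with n = 2 arrays a group and the spread estimated over the 18 time course arrays, adjusted p is limma's with Benjamini-Hochberg adjustment over 14787 genes, and a gene is said to have risen or fallen where that value was under 0.05. The p-values measure only the spread between these samples.

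Replicates of the knockdown correlated at 0.995 to 0.997 in level over the tested genes, and the 8 h change of replicate 1 correlated with that of replicate 2 at 0.856 across genes, which are not independent replicates. The 10 markers of embryonic stem cells averaged 10.52 to 10.55 at 0 h and 10.14 to 10.16 at 8 h. The 23 feeder fibroblast markers with a probe set averaged 7.41 to 7.43 at 0 h and 7.65 to 7.75 at 8 h, and of their 7 defining members Lum, Dcn and Postn were too dim to be tested. In bulk RNA a change in the share of a cell type and a change in RNA per cell cannot be told apart.

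By 8 h the depleted cells had lost signal for a small group of transcripts by large factors and gained it for a large group by small ones. Of 14787 genes tested, 5467 rose (37%) and 2800 fell (18.9%), with a median change over these genes of 0.11 and quartiles of −0.14 and 0.32. Over all probe sets, unlisted and dim ones included, the array median was lower at 8 h (6.28 and 6.32) than at 0 h (6.49 and 6.49). The many small rises therefore hold for the tested genes and not for the array as a whole. Falls of at least 2-fold numbered 522 (3.53%) and rises of that size 28 (0.189%), and 67 genes fell by at least 4-fold. Changes ran from −5.67 for Mir5099 to 1.66 for Scarna6. The split of calls depended on scaling: 66.1% of calls were rises as deposited, 61.1% after another quantile normalization and 27.7% when the median of 25 glycolysis and cytoskeleton genes was made equal in every array. That last scaling lowered the median of all genes by 0.22 and gave 1778 rises and 4650 falls. Large falls are therefore described first. The counts of each list below can be read against the 37% of all genes that rose and the 18.9% that fell, and "equal-median scaling" stands for that last scaling.

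The 12 largest falls were led by transcripts of microRNA genes and of histone genes, together with Dleu2, a non-coding host transcript, and Ccn1, a secreted matricellular protein. Mir5099 read 13.98 and 13.96 at 0 h, 8.98 and 8.77 at 4 h, and 8.35 and 8.25 at 8 h. Its change was −5.67 ± 0.09 (adjusted p = 1.88e-12), which left 1.97% of the 0 h signal. Mir669g fell by 4.44 ± 0.14, from 11.002 and 11.001 to 6.806 and 6.319, leaving 4.61%. Most of each fall was present at 4 h, and the 0 h and 8 h arrays did not overlap for any of the 12, by the rule that named them. Dleu2 read 8.72 and 9.01 at 0 h and 5.16 and 5.09 at 8 h (−3.74 ± 0.18, adjusted p = 1.26e-08), while its second probe set changed by −1.39. Its 8 h signals lay below 6.07, the lowest mean of any tested gene, as did 1 or both 8 h signals of Mir453 and H2ac15, so the size of these falls and their rank are uncertain. Ccn1, an immediate early gene whose product binds integrins, went from 11.40 and 11.57 to 8.26 and 8.22 (−3.25 ± 0.09, adjusted p = 6.19e-10), leaving 10.5%. The rest of the 12 were Mir466b-2 (−3.70), Mir453 (−3.38), Mir669j (−3.35), Mir669k (−3.30) and the histone genes described below.

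**Figure D1:**
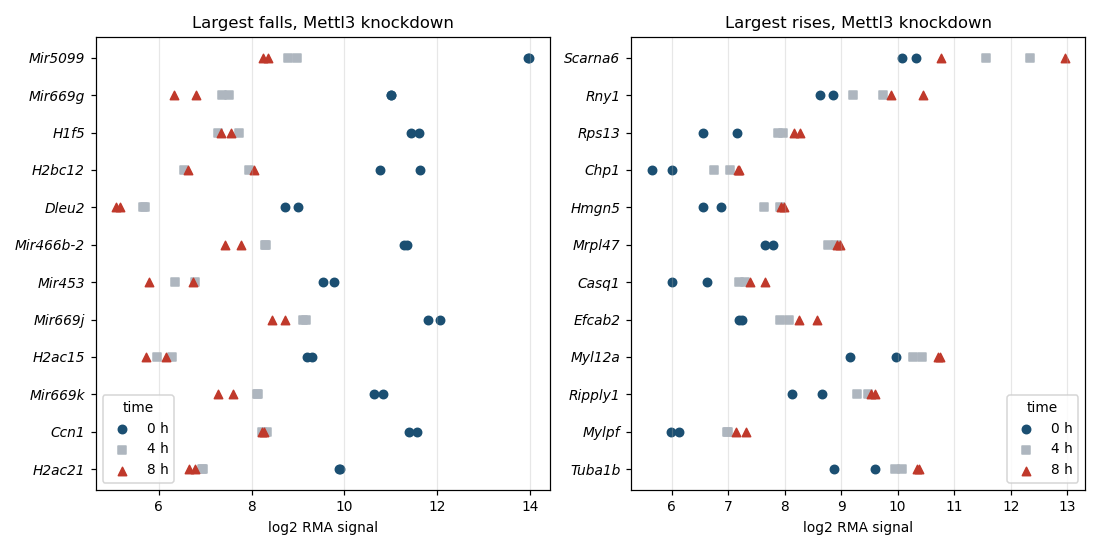
Log2 RMA signal (x axis) of the 12 largest falls (left) and the 12 largest rises (right) in the Mettl3 knockdown, with 1 point per array and the marker showing 0 h, 4 h or 8 h. The falls of Mir5099 and Ccn1 stand far from their 0 h points already at 4 h, whereas the rises are smaller and Scarna6 shows 8 h arrays as far apart as 10.76 and 12.95.

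Genes named for a microRNA were then counted as a class, which was chosen by symbol after values were seen and carries no test of its own. Of 472 such genes 145 were bright enough to test, and 71 of these fell (49.0%, against 18.9% of all genes) while 11 rose (7.59%, against 37%). Their median was −0.36, and 40 fell by at least 2-fold. Because the RNA was poly(A)-selected, these probe sets read RNA from the gene's region and not the mature microRNA, and members of the Mir466, Mir467 and Mir669 families are near-identical copies whose signals may be shared. Mature sequences from RefSeq (GRCm38.p6) were kept for 25 of the 40, 43 sequences with 43 different seeds. These counts describe the sequences kept and not all that RefSeq may hold for the 40. Whether a seed recurs beyond the sequences kept was not tested. The seed, bases 2 to 8, directs a microRNA to its targets and is in capitals in the mature forms below. They are shown because they are products of transcripts that fell.
mmu-miR-453: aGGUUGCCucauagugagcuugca
mmu-miR-15a-5p: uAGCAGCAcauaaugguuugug
mmu-miR-18a-5p: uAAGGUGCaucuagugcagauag
mmu-miR-290a-3p: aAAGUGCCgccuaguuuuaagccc
mmu-miR-382-5p: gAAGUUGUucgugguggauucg
mmu-miR-135b-3p: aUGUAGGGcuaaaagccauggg
mmu-miR-493-3p: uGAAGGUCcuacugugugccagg

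The mature forms lie, on the strand given, at chr12:109735669-109735692 (plus) for miR-453, chr14:61632075-61632096 (minus) for miR-15a-5p, chr14:115043867-115043889 (plus) for miR-18a-5p and chr7:3218674-3218697 (plus) for miR-290a-3p. Those of miR-382-5p, miR-135b-3p and miR-493-3p lie at chr12:109733781-109733802 (plus), chr1:132198142-132198163 (plus) and chr12:109580283-109580305 (plus). Mir453 read 9.53 and 9.78 at 0 h and 6.75 and 5.79 at 8 h (−3.38 ± 0.25, adjusted p = 5.77e-07). Mir15a, a gene that lies within Dleu2, read 9.38 and 9.06 at 0 h and 6.54 and 6.38 at 8 h (−2.76 ± 0.21). Both genes had no overlap between times, which was also true of most tested genes. Mir18, of the cluster known for Myc-driven growth, went from 8.52 and 8.84 to 6.06 and 6.03 (−2.64 ± 0.11). Mir290a, of the cluster that marks embryonic stem cells, went from 9.94 and 10.02 to 7.91 and 7.44 (−2.30 ± 0.18). Mir382 went from 8.02 and 8.18 to 6.15 and 5.86 (−2.09 ± 0.11). Both 8 h signals of Mir18 and 1 each of Mir453 and Mir382 lay below 6.07, the lowest mean of any tested gene, so the size of these falls is uncertain. The spread between the 8 h arrays was widest for Mir453 among these genes. Of the 25 genes with a sequence kept, 10 lay on chromosome 12 within 155.4 kb (chr12:109580243-109735692) and changed by −1.06 to −3.38. The tested microRNA genes in that stretch that did not fall by 2-fold were not counted, so the share that fell there is not known. The 11 that rose did so by less than 2-fold, with Mir703 (0.69) and Mir139 (0.67) among them.

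Histone transcripts fell about as steeply. Replication-dependent histone messages are made in S phase and end in a stem-loop in place of a poly(A) tail, so a poly(A)-selected preparation holds only their polyadenylated part. Of 19 replication-dependent histone genes listed, 10 had a probe set and 5 were bright enough to test, and 4 of these fell, with a median of −2.73. Counted by symbol after values were seen, 18 of 29 histone genes were tested, and 14 fell (77.8%) and 2 rose, with a median of −2.06 and 13 falls of at least 2-fold. H1f5, a linker histone, read 11.60 and 11.44 at 0 h, 7.73 and 7.27 at 4 h, and 7.55 and 7.34 at 8 h (−4.08 ± 0.23, adjusted p = 5.89e-08), leaving 5.93%. H2bc12 read 10.77 and 11.63 at 0 h and 8.05 and 6.63 at 8 h (−3.86 ± 0.49, adjusted p = 3.53e-05). H1f5 was closely replicated, and H2bc12 had the widest spread of the 12 largest falls. H2ac15 (−3.31 ± 0.28) and H2ac21 (−3.17 ± 0.13) also fell. H4c12, from a bright 13.44 and 13.60 to 12.90 and 12.84, changed by only −0.65. The 2 that rose were H1f10 (0.74 ± 0.10), a linker histone that is not bound to replication, and H2bc22 (0.70 ± 0.19). Histone genes are near-identical copies, so the split of signal among them is uncertain.

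**Figure D2:**
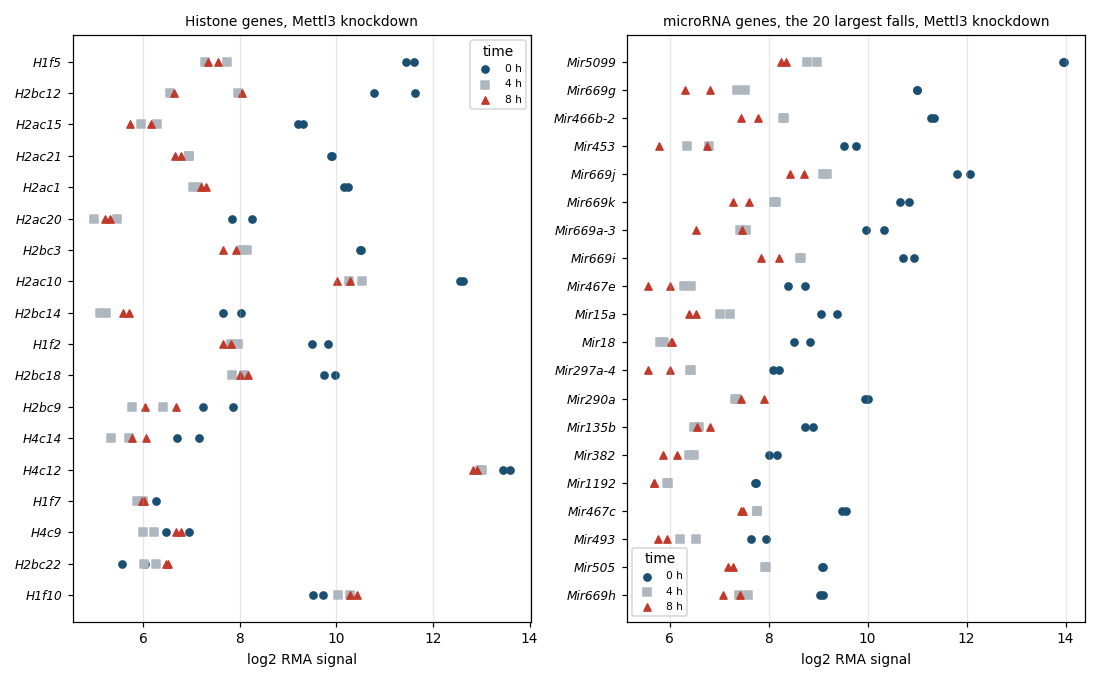
Log2 RMA signal (x axis) per array at 0 h, 4 h and 8 h in the Mettl3 knockdown for the 18 tested histone genes and for the 20 microRNA genes with the largest falls. The 4 h and 8 h points of most genes lie together and far to the left of the 0 h points, and H1f10, H2bc22 and H4c12 stand apart from that pattern.

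The 12 largest rises were much smaller than the falls, and several belonged to short or structured RNAs or to genes with probe sets that disagreed. Rny1, a small RNA of the Ro particle, read 8.63 and 8.86 at 0 h and 9.88 and 10.45 at 8 h (1.42 ± 0.23, adjusted p = 0.000196). Chp1, a calcineurin-related calcium-binding protein, went from 6.01 and 5.65, which lie below 6.07 and leave the size of the rise uncertain, to 7.20 and 7.17 (1.35 ± 0.19, adjusted p = 7.36e-05). Efcab2, an EF-hand protein, went from 7.25 and 7.19 to 8.58 and 8.25 (1.19 ± 0.14), and Mylpf, a muscle myosin light chain, from 6.13 and 5.99 to 7.14 and 7.31 (1.17 ± 0.12). The Mylpf signal of 5.99 also lay below 6.07, so the size of that rise is uncertain too. In these 4 genes the times did not overlap, which holds for all 12 by the rule that named them. Scarna6, a guide RNA of Cajal bodies, read 10.32 and 10.07 at 0 h, 12.34 and 11.57 at 4 h, and 10.76 and 12.95 at 8 h (1.66 ± 0.62, adjusted p = 0.0369), and 1 array decides it: without 8 h replicate 2 the change was 0.57 (adjusted p = 0.422), and without 0 h replicate 1 or replicate 2 the adjusted p was 0.0837 or 0.133. Mrpl47 (1.24 ± 0.24) and Myl12a (1.17 ± 0.22) had other probe sets that changed by −0.22 and −0.18. Rps13 (1.35 ± 0.22), Hmgn5 (1.25 ± 0.19), Casq1 (1.20 ± 0.19), Ripply1 (1.17 ± 0.14) and Tuba1b (1.11 ± 0.20) completed the 12.

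Immediate early factors, the transcription factors and regulators that cells switch on within minutes of a growth signal, fell as a group. Of 31 tested, 24 fell (77.4%) and 1 rose (3.23%), with a median of −0.71 against 0.11 for all genes. Ccn2, a matricellular protein related to Ccn1, read 10.73 and 10.84 at 0 h and 7.97 and 7.97 at 8 h (−2.82 ± 0.08, adjusted p = 6.36e-10). Myc, the growth-promoting transcription factor, went from 10.15 and 10.26 to 8.33 and 7.89 (−2.09 ± 0.14, adjusted p = 1.91e-07). Both were separated between times by more than the spread of either time. Nr4a1, an orphan nuclear receptor, went from 10.52 and 10.53 to 8.64 and 8.63 (−1.89 ± 0.06). Klf6, a zinc finger factor, went from 11.74 and 11.81 to 10.08 and 9.83 (−1.82). Jun, a subunit of AP-1, went from 9.59 and 9.71 to 8.71 and 8.70 (−0.95 ± 0.09, adjusted p = 5.44e-06), a smaller fall than that of its relative Junb (−1.36 ± 0.16). Csrnp1 (−2.01), Klf10 (−1.56), Zfp36 (−1.43), Ier3 (−1.40), Zfp36l2 (−1.29), Ier2 (−1.19) and Klf2 (−1.08) fell by at least 2-fold, and Fosl2 (−0.85), Egr1 (−0.68), Mcl1 (−0.60) and Btg2 (−0.41) by less. Zfp36 and Zfp36l2 encode proteins that themselves bind AU-rich messages and speed their decay. Fos (−0.21), Egr2 (−0.21), Egr3 (−0.11), Jund (−0.10), Fosb (0.03) and Ier5 (0.07) did not pass. Maff, a small Maf factor, was the single riser (0.49 ± 0.14, adjusted p = 0.00931) and did not pass without 0 h replicate 2 (adjusted p = 0.114) or without 8 h replicate 1 (0.079).

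The feedback genes of FGF-ERK signalling, which damp the pathway that moves embryonic stem cells out of self-renewal, also fell in most cases. Of 16 tested, 11 fell (68.8%, against 18.9% of all genes) and 1 rose (6.25%, against 37%), with a median of −1.21. Among ligands, Fgf4, the main FGF made by these cells, read 10.37 and 10.39 at 0 h and 9.15 and 8.98 at 8 h (−1.31 ± 0.09). The receptor Fgfr1 did not pass (0.06). Among inhibitors, Dusp6, the ERK phosphatase, read 11.83 and 11.70 at 0 h and 8.95 and 8.71 at 8 h (−2.93 ± 0.19, adjusted p = 1.6e-07). Spry2, which blocks receptor signalling to Ras, went from 10.53 and 10.57 to 7.83 and 7.94 (−2.67 ± 0.08, adjusted p = 6.36e-10). Spry4, of the same family, went from 11.60 and 11.62 to 9.38 and 9.25 (−2.29 ± 0.13). All of these had 8 h arrays well below the 0 h arrays. The nuclear phosphatases Dusp5 (9.971 and 9.997 to 7.746 and 7.693, −2.26) and Dusp1 (10.54 and 10.47 to 8.41 and 8.13, −2.24 ± 0.08) fell by like amounts. Spry1 (−1.55), Spred2 (−1.33), Dusp4 (−1.10) and Spred1 (−0.79) fell less. The target factors split: Etv5 fell (−0.28), although it changed by 0.0021 when its probe sets were averaged, and Etv4 rose from 8.50 and 8.59 to 9.21 and 9.13 (0.62 ± 0.07, adjusted p = 1.62e-05). Dusp14 (−0.09), Dusp2 (−0.05) and Etv1 (−0.12) did not pass.

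Feedback genes of BMP and TGF-beta signalling gave 13 falls (81.2%, against 18.9% of all genes) and 1 rise (6.25%, against 37%) among 16 tested, with a median of −0.86. BMP signals act through Id proteins to hold back neural fate in serum-grown cells, and Nodal acts through Smad2 and is checked by the Lefty proteins. Of the ligands, Nodal read 10.16 and 10.06 at 0 h and 7.64 and 7.62 at 8 h (−2.48 ± 0.09, adjusted p = 1.38e-09). Bmp4 went from 9.94 and 10.06 to 8.19 and 7.95 (−1.93 ± 0.13, adjusted p = 2.91e-07), and Gdf3 fell by 0.28. Nodal and Bmp4 thus had 8 h arrays far below those at 0 h. Of the antagonists, Smad7 (−1.78), Lefty1 (−1.58 ± 0.17), Bambi (−1.18) and Smad6 (−0.50) fell, while Lefty2 rose from 8.92 and 8.86 to 9.46 and 9.48 (0.58 ± 0.10, adjusted p = 0.000314). Of the target factors, Id2 read 11.95 and 12.06 at 0 h and 10.46 and 10.40 at 8 h (−1.58 ± 0.06, adjusted p = 2.28e-09). Id3 (−0.46) and Id1 (−0.37) fell less, and Id4 did not pass (−0.27, adjusted p = 0.0536). Skil (−1.09), Pmepa1 (−0.89) and Tgif1 (−0.83), which restrain Smad transcription or receptors, fell, and Ski did not pass (−0.12).

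**Figure D3:**
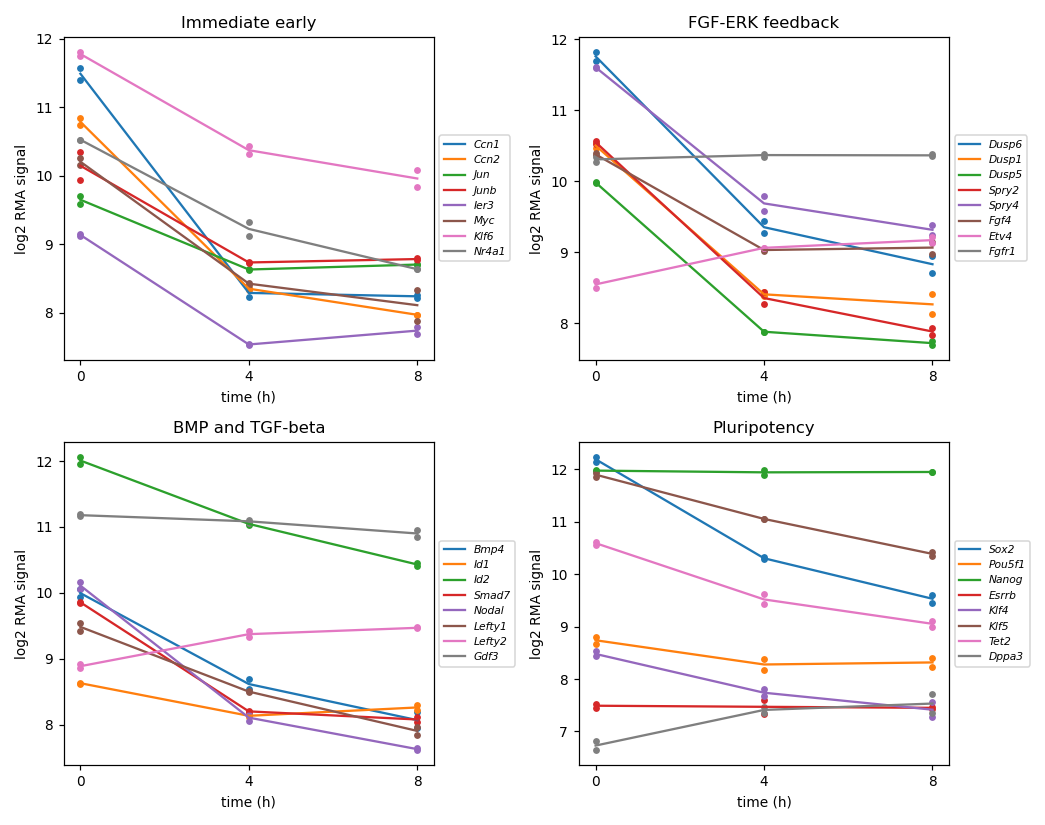
Log2 RMA signal (y axis) against time in hours (x axis) in the Mettl3 knockdown for 8 genes each of the immediate early, FGF-ERK, BMP and TGF-beta, and pluripotency lists, with points for arrays and lines through the means. Most genes of the signalling lists drop by 4 h and change less afterwards, Sox2 drops at each step, and Nanog, Esrrb and Fgfr1 stay near their 0 h signal as deposited (Nanog and Esrrb were called lower under the equal-median scaling).

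Of 10 genes of the LIF-Stat3 pathway, 6 fell (60.0%) and 2 rose (20%), with a median of −0.43. Pim3, a kinase induced by Stat3, read 9.59 and 9.34 at 0 h and 7.51 and 7.53 at 8 h (−1.95 ± 0.12). Socs3, the feedback inhibitor of Jak kinases, went from 8.75 and 8.65 to 7.71 and 7.59 (−1.05), and Stat3 itself from 10.36 and 10.27 to 10.06 and 9.97 (−0.30 ± 0.05, adjusted p = 0.000489). Gbx2 (−1.60 ± 0.13), Pim1 (−1.05 ± 0.07) and Socs2 (−0.56) fell in the probe sets used, without overlap between times, as most tested genes were. Their second, dimmer probe sets changed by 0.22, −0.35 and −0.64, so those of Gbx2 disagreed in direction. The receptor chains Lifr (−0.01) and Il6st (−0.03) did not pass. Jak1 (0.36) and Ccnd1 (0.30) rose as deposited but did not pass under the equal-median scaling.

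Pluripotency factors did not move together: 14 of 28 tested fell (50.0%, against 18.9% of all genes), 5 rose (17.9%, against 37%) and 9 did not pass, with a median of −0.11. Under the equal-median scaling 3 rose and the median was −0.33. Sox2, the partner of Oct4, had the largest fall, from 12.15 and 12.24 at 0 h to 10.32 and 10.29 at 4 h and 9.60 and 9.46 at 8 h (−2.66 ± 0.10, adjusted p = 1.4e-09). Klf5 went from 11.86 and 11.93 to 10.42 and 10.35 (−1.51 ± 0.06), and Klf4 from 8.53 and 8.43 to 7.27 and 7.56 (−1.06 ± 0.10, adjusted p = 2.95e-06). Tet2, which oxidises 5-methylcytosine, went from 10.622 and 10.564 to 9.104 and 9.002 (−1.54). Nr5a2 (−1.01), Zfp42 (−0.87) and Tbx3 (−0.64), which also belong to the naive network, fell as well. Nanog read 11.96 and 11.99 at 0 h and 11.96 and 11.94 at 8 h (−0.03 ± 0.05, adjusted p = 0.674). Esrrb read 7.46 and 7.53 at 0 h and 7.48 and 7.43 at 8 h (−0.04 ± 0.08, adjusted p = 0.712). Relative to the glycolysis and cytoskeleton genes both were called lower, Nanog at −0.25 and Esrrb at −0.26, and another quantile normalization also called Nanog lower (−0.17). Pou5f1, which encodes Oct4, read 8.81 and 8.67 at 0 h and 8.23 and 8.41 at 8 h (−0.42 ± 0.11, adjusted p = 0.00708), and did not pass without 0 h replicate 1 (adjusted p = 0.057) or 8 h replicate 1 (0.068). Rif1 (−0.46), Utf1 (−0.39) and Tet1 (−0.24) fell less. Dppa3, a maternal factor that guards DNA methylation, rose from 6.82 and 6.64 to 7.71 and 7.35 (0.80 ± 0.11, adjusted p = 6.03e-05). Tcl1, a coactivator of Akt, rose from 9.42 and 9.46 to 10.18 and 10.19 (0.75 ± 0.06), and Lin28a, which blocks let-7 processing, rose by 0.45. The calls of Sall4 (−0.11) and Trim28 (0.13) were lost when single arrays were left out, Sall4 without any 1 of the 4 arrays (adjusted p = 0.0804 to 0.163), and Trim28 without 0 h replicate 2 (0.104), 8 h replicate 1 (0.0958) or 8 h replicate 2 (0.0542).

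Markers of the primed epiblast, the state that follows, were also mixed, with 5 of 12 lower (41.7%) and 4 higher (33.3%), and 1 higher under the equal-median scaling. Zic2, a zinc finger factor, read 9.57 and 9.45 at 0 h and 8.02 and 7.99 at 8 h (−1.51 ± 0.07). Foxd3 (−1.17 ± 0.11), Otx2 (−1.09 ± 0.14) and Pou3f1 (−0.94) fell, all transcription factors. Lef1 fell by 0.33, but did not pass without 0 h replicate 2 (adjusted p = 0.184), 8 h replicate 1 (0.0688) or 8 h replicate 2 (0.142). Nes (0.54), Cdh2 (0.36) and the DNA methyltransferases Dnmt3b (0.32) and Dnmt3a (0.30) rose as deposited, and the last 3 did not pass under the equal-median scaling. Fgf5, the usual marker of that state, did not pass (0.23). Neuroectoderm genes split as well, 4 of 11 lower (36.4%) and 5 higher (45.5%), or 3 higher under the equal-median scaling. Hes1 (−1.14), a Notch and BMP target, had the largest fall after Gbx2, whose probe sets disagreed in direction. Fabp7 (0.72), Nes and Msi1 (0.54) were higher. Of 15 trophoblast genes 6 fell, Tfap2c by 0.75, Fgfr2 by 0.59 and Elf3 by 0.40 among them, and 1 rose, which became 0 without either 0 h array and under the equal-median scaling. Of 8 two-cell-like genes 0 fell and 1 rose, Zscan4e (0.52), a member of a family of near-identical copies, which did not pass without 0 h replicate 2 (adjusted p = 0.173), without 8 h replicate 1 (0.127) or under the equal-median scaling. The 12 endoderm genes (4 higher, 3 lower) and the 13 genes of mesoderm and streak (2 higher, 1 lower) rose or fell in no larger share than all genes did, apart from 25% endoderm falls, and had 0 rises under the equal-median scaling. Their counts moved by more than 1.5 times when an array was left out: the endoderm rises became 1 without 0 h replicate 1 and its falls 1 without 0 h replicate 2 or 8 h replicate 1, the 2 mesoderm rises became 0 without either 0 h array or 8 h replicate 1, and its fall became 0 without 0 h replicate 2 or either 8 h array.

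Genes with a Zfp symbol and a number were the largest list. Most encode zinc finger transcription factors, many of them repressors of transposons, but the list was made by symbol and also holds other proteins, such as Zfp36 above. Of 296 tested, 190 fell (64.2%, against 18.9% of all genes) and 16 rose (5.41%), with a median of −0.52 and 58 falls of at least 2-fold. Zfp296, a zinc finger protein of pluripotent cells, read 10.86 and 10.98 at 0 h and 8.42 and 8.19 at 8 h (−2.62 ± 0.09). Zfp84 (−2.36), Zfp623 (−1.71) and Zfp808 (−1.07) also fell. Under the equal-median scaling, 3 rose and the median was −0.74.

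Genes that control the cell cycle and the response to p53 moved both ways and held some steep single falls. Cdkn1a, the p21 inhibitor of cyclin-dependent kinases, read 11.52 and 11.67 at 0 h and 8.91 and 8.71 at 8 h (−2.79 ± 0.11, adjusted p = 3.91e-09). It led the p53 targets, of which 9 of 21 fell (42.9%) and 4 rose (19%), with a median of −0.17, with Plk3 (−1.59), Plk2 (−1.45) and Sesn2 (−1.30) after it. The 4 rises became 2 without 0 h replicate 1 or without 8 h replicate 1 and 0 under the equal-median scaling, which gave a median of −0.39. Mycn (−1.70) joined Myc and Cdkn1a among the G1 regulators, of which 5 of 17 fell (29.4%) and 7 rose (41.2%), or 2 rose under the equal-median scaling. Cdt1, which licenses replication origins, read 11.42 and 11.51 at 0 h and 9.68 and 9.64 at 8 h (−1.80 ± 0.08). With Cdc6 (−1.15), Orc1 (−0.83) and Mcm10 (−0.60) it stood among 6 falls in 23 replication genes (26.1%), of which 9 rose as deposited (39.1%, near the 37% of all genes) and 0 rose under the equal-median scaling. Of 23 mitotic genes 12 fell (52.2%), Plk1 (−0.79), Ttk (−0.58), Ccna2 (−0.56) and Kif11 (−0.55) among them, and 7 rose, which became 4 without 0 h replicate 1 or without 8 h replicate 1 and 0 under the equal-median scaling. The Bcl2 family had 4 falls and 4 rises among 13 (30.8% each, and 2 rises under the equal-median scaling), which for the rises is below the share of all genes. Bcl2l11, the Bim activator of apoptosis, fell by 1.28.

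Of 36 genes of the messenger RNA decay machinery 16 fell (44.4%) and 6 rose (16.7%), with a median of −0.11. Under the equal-median scaling 26 fell and 1 rose, with a median of −0.34. Cnot4, a ubiquitin ligase of the Ccr4-Not deadenylase complex, read 11.09 and 11.11 at 0 h and 9.75 and 9.70 at 8 h (−1.37 ± 0.04, adjusted p = 7.34e-10). Pum2, a repressor that binds message tails, fell by 1.46, the deadenylase subunit Cnot2 by 1.00 and the decapping factor Dcp1a by 0.99. Of 17 writers, readers and erasers of the methyl mark 7 fell (41.2%) and 4 rose (23.5%), and under the equal-median scaling 0 rose and the median went from −0.06 to −0.29. Cbll1, a ubiquitin ligase of the writer complex, changed by −1.31 ± 0.08, and Rbm15, an RNA-binding adaptor of that complex, by −0.58. Wtap, the scaffold of the writer complex, went from 9.47 and 9.39 to 9.13 and 9.12 (−0.30 ± 0.06, adjusted p = 0.00127). Ythdf1, a cytoplasmic reader, fell by 0.39 in the probe set used and rose by 0.56 in another, so its direction is unsettled. Of 21 polycomb genes 7 fell (33.3%) and 4 rose (19%), against 11 and 0 under the equal-median scaling. Eed (−0.83 ± 0.04), Mtf2 (−0.65), Pcgf6 (−0.62) and the methyltransferase Ezh2 (−0.33) fell, and the 4 rises became 1 without 0 h replicate 1 or without 8 h replicate 1. Amino acid stress and unfolded protein genes had 7 falls and 7 rises among 22 as deposited (31.8% each), but 11 falls and 3 rises under the equal-median scaling. Xbp1 fell by 1.88 ± 0.07, and Atf4, the translation-controlled stress factor, went from 8.15 and 8.08 to 7.29 and 7.33 (−0.81).

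A list of 14 tested long non-coding transcripts, most of them hosts of small nucleolar RNAs but with Neat1, Malat1 and Meg3 among them, had 11 falls (78.6%) and 0 rises, with a median of −0.44. Spliced host transcripts are often destroyed during translation, while the small RNAs cut from their introns are stable. Malat1 (−0.06), Meg3 (−0.25) and Snhg11 (−0.01) did not pass. Snhg4 read 10.71 and 10.78 at 0 h, 9.64 and 9.61 at 4 h, and 9.82 and 9.75 at 8 h (−0.95). Its fall was complete at 4 h, and Snhg5 (−1.31), Neat1 (−1.06), the scaffold of paraspeckles, and Snhg7 (−0.91) also fell. Small nucleolar RNA genes themselves, counted by symbol after values were seen, had 26 falls and 7 rises among 64 at 4 h. Of all genes 12.9% fell and 31.5% rose at that time. At 8 h 14 fell (21.9%) and 23 rose (35.9%), near the 18.9% and 37% of all genes. Between 4 h and 8 h 18 of the 64 rose and 0 fell, against 1.4% and 6.42% of all genes. Counts between those times rest on few arrays, as given below. The RNA was poly(A)-selected, and what these probe sets read was not tested.

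Among the lists, rises were most frequent for oxidative phosphorylation, proteasome and ribosomal protein genes and for the insulin-like growth factor system, and they were small. Of 41 oxidative phosphorylation genes 36 rose and 0 fell (87.8%, against 37% of all genes), with a median of 0.40. Sdhd, an anchor subunit of complex II, read 10.35 and 10.35 at 0 h and 11.06 and 11.11 at 8 h (0.74 ± 0.05, adjusted p = 1.02e-07). Ndufa2 (0.77) and Ndufb8 (0.75), of complex I, and Uqcrq (0.58), of complex III, also rose. Of 57 cytosolic ribosomal protein genes 38 rose (66.7%) and 3 fell (5.26%), with a median of 0.25. Rpl37a (0.75), Rps29 (0.68) and Rpl13 (0.62) rose, and the 3 falls became 1 without 0 h replicate 2 or without 8 h replicate 2. Many ribosomal protein genes have near-identical processed copies, so single values are uncertain. Of 29 proteasome genes 22 rose (75.9%) and 0 fell (median 0.27), with Psma7 at 0.63 and Psma1 at 0.41. Of 71 mitochondrial ribosomal protein genes, counted by symbol after values were seen, 41 rose (57.7%) and 7 fell (median 0.27). Under the equal-median scaling, rises and falls numbered 19 and 1 for oxidative phosphorylation, 12 and 4 for ribosomal proteins and 2 and 1 for the proteasome, with medians of 0.18, 0.03 and 0.05. The glycolysis and cytoskeleton list itself had 13 of 25 higher (52.0%) and 0 lower as deposited (median 0.16), with Pfkl (0.57), Tuba1a (0.55), Cfl1 (0.51) and Pgam1 (0.45). Actb (0.16 ± 0.08, adjusted p = 0.118) and Gapdh (0.09 ± 0.04, adjusted p = 0.119) did not pass.

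Of 12 genes of the insulin-like growth factor system 8 rose (66.7%) and 2 fell (16.7%), with a median of 0.26, against 3 rises and a median of 0.04 under the equal-median scaling. The ligand Igf2 (0.60), the receptor Igf2r (0.35), whose call was lost under the equal-median scaling, and the binding protein Igfbp2 (0.69) rose, and the 8 rises became 5 without 8 h replicate 2. Igfbp3 did not pass (0.03, adjusted p = 0.758). The adaptor Irs2 fell from 10.34 and 10.34 to 8.39 and 8.12 (−2.08 ± 0.12). Of the 19 feeder fibroblast markers bright enough to test, 9 rose (47.4%, against 37% of all genes) and 0 fell (median 0.25), and 4 rose under the equal-median scaling (median 0.02). Fstl1 went from 9.42 and 9.38 to 9.98 and 9.95 (0.57), and Mmp2 (0.53), Pdgfrb (0.52) and Acta2 (0.50) rose. Col1a1, a defining marker, read 7.65 and 7.76 at 0 h and 8.00 and 8.16 at 8 h. The part that feeder RNA had in any other rise was not tested.

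**Figure D4:**
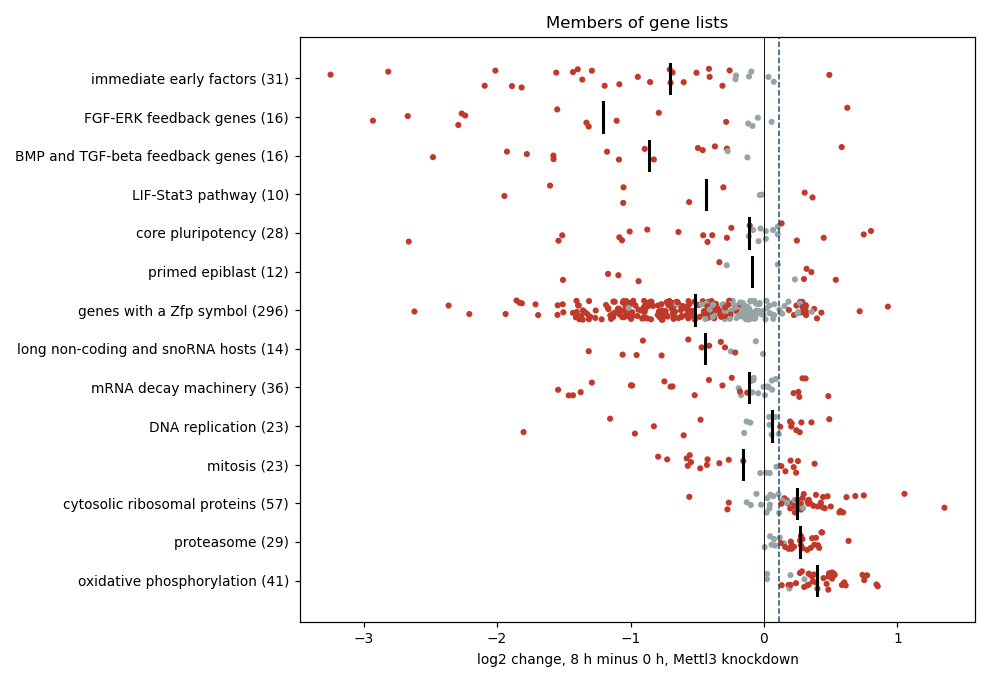
Log2 change from 0 h to 8 h in the Mettl3 knockdown (x axis) for every tested member of 14 gene lists, in red where it passed the test and in grey where it did not, with a black bar at each list's median, a dashed line at the median of all genes (0.11) and a solid line at 0. The 3 signalling lists and the list of Zfp symbols lie mostly left of both lines, and the oxidative phosphorylation list lies mostly right of them with a median of 0.40.

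Changes were already numerous at 4 h. Between 0 h and 4 h, 4664 genes rose (31.5%) and 1908 fell (12.9%), 259 of them by at least 2-fold (1.75%). Both comparisons use the same 0 h arrays, so their values are given side by side and not correlated. Immediate early factors had 22 falls at 4 h and 24 at 8 h (medians −0.66 and −0.71), and Ier3, at 9.15 and 9.12 at 0 h, read 7.53 and 7.54 at 4 h and 7.79 and 7.69 at 8 h. BMP and TGF-beta genes had 13 falls at each time, with medians of −0.59 and −0.86. FGF-ERK genes had 10 and then 11 falls, with medians of −0.75 and −1.21. Genes with a Zfp symbol had 164 falls at 4 h and 190 at 8 h (medians −0.37 and −0.52). Between 4 h and 8 h, 31 of 296 genes with a Zfp symbol fell, as did 10 of 23 mitotic genes and 6 of 23 replication genes. Falls between those times also took in 7 of 28 pluripotency, 5 of 16 BMP and TGF-beta, 4 of 16 FGF-ERK and 5 of 31 immediate early genes. The oxidative phosphorylation, proteasome and cytosolic ribosomal protein lists had 0. Over all genes 207 rose (1.4%) and 949 fell (6.42%) between 4 h and 8 h. These counts rest on few arrays: the rises were 90 without 4 h replicate 1, 32 without 4 h replicate 2, 48 without 8 h replicate 1 and 53 without 8 h replicate 2, and the falls 422, 548, 662 and 454.

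The scramble arrays give the change over the same times without the depletion. In scramble, 5823 genes rose between 0 h and 8 h (39.4%) and 3162 fell (21.4%), 750 by at least 2-fold (5.07%), and no array is shared with the knockdown comparison. Of the 2800 falls in the knockdown 84.3% were also falls in scramble, and the 2361 shared genes were 74.7% of the scramble falls. Of the 5467 rises 80.2% were shared, which was 75.3% of the scramble rises. Falls of at least 2-fold in both numbered 450, or 86.2% of the 522 in the knockdown and 60% of the 750 in scramble. Genes called in opposite directions were few, with 22 that fell in the knockdown and rose in scramble and 38 the other way. List medians in scramble were −0.45 for immediate early, −1.19 for FGF-ERK, −1.06 for BMP and TGF-beta, −0.65 for Zfp-named, −0.53 for the listed long non-coding and 0.44 for oxidative phosphorylation genes. Mir5099 changed by −5.80 there, H1f5 by −4.60 and Sox2 by −2.69.

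The knockdown and scramble already stood apart at 0 h. Feeder fibroblast markers then averaged 7.43 and 7.41 in the knockdown and 7.03 and 7.02 in scramble. Embryonic stem cell markers averaged 10.55 and 10.52 in the knockdown and 10.93 and 10.95 in scramble. What part cell shares had in the differences between them was not tested. As deposited, 2849 genes were higher in the knockdown at 0 h (19.3%) and 2737 lower (18.5%), and under the equal-median scaling 1373 were higher and 5340 lower. A difference in change can therefore start from a difference in level. The difference itself was tested as the 8 h change in the Mettl3 knockdown minus the 8 h change in scramble. It was positive for 363 genes (2.45%) and negative for 150 (1.01%), with 12 (0.0812%) and 7 (0.0473%) at 2-fold or more. Single arrays carried weight here: the positive and negative calls were 192 and 70 without knockdown 0 h replicate 1, 165 and 57 without knockdown 8 h replicate 1, 172 and 69 without scramble 0 h replicate 1, 211 and 69 without scramble 0 h replicate 2, and 202 and 59 without scramble 8 h replicate 2. With the spread taken from the groups compared alone, 45 and 8 passed. The genes described next passed without any 1 of the 8 arrays unless stated. The lists of ribosomal proteins, oxidative phosphorylation, proteasome, glycolysis and cytoskeleton, histones and DNA replication had 0 members with a called difference in either direction. So did those of long non-coding and small nucleolar RNA host transcripts, feeder markers, neuroectoderm, mesoderm and streak, endoderm and two-cell-like genes. Of all genes only 2.45% were positive and 1.01% negative. Lists of 5 to 57 tested genes would hold few such members in any case, so 0 sets none of them apart.

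Genes that fell further in the knockdown were led by Ccn1 and Jun. Ccn1 read 9.48 and 9.18 at 0 h and 7.90 and 7.74 at 8 h in scramble, a change of −1.51, and the difference was −1.74 ± 0.13 (adjusted p = 7.43e-05). Its 0 h level was 2.16 higher in the knockdown than in scramble. Jun rose in scramble, from 8.08 and 8.05 to 8.63 and 8.47 (0.49), where it fell in the knockdown, and the difference was −1.43 ± 0.13 (adjusted p = 0.00029). The knockdown began 1.59 above scramble at 0 h, and the 8 h arrays of both lay close, at 8.71 and 8.70 against 8.63 and 8.47. Irs2 read 8.21 and 8.28 at 0 h and 7.42 and 7.37 at 8 h in scramble (difference −1.23 ± 0.17, adjusted p = 0.00311) and began 2.09 higher in the knockdown. Irs1, its relative in insulin signalling, went from 7.22 and 7.22 to 6.66 and 6.43 in the knockdown and from 5.74 and 6.15 to 6.46 and 6.32 in scramble (difference −1.12 ± 0.19, adjusted p = 0.00836) and began 1.28 higher. Its scramble 0 h signal of 5.74 lay below 6.07, the lowest mean of any tested gene, so the size of the difference is uncertain. The other, dimmer Irs1 probe set changed by −0.13 in the knockdown. Serpinb9b, a protease inhibitor, began 0.41 lower in the knockdown. It went from 9.56 and 9.32 to 7.71 and 7.40 there and from 9.86 and 9.85 to 9.03 and 8.91 in scramble (difference −1.002 ± 0.16, adjusted p = 0.00641). Ier3 (−0.85, adjusted p = 0.000598), Zic2 (−0.70, 0.00429) and Dusp1 (−0.65, 0.00912) had negative differences too. Ccn2 (−0.65, 0.011) did not pass when its probe sets were averaged (adjusted p = 0.353). Zfp608 (−1.18 ± 0.22, adjusted p = 0.0131) did not pass without knockdown 8 h replicate 1 (0.0586), and Phlda1 (−1.01 ± 0.21) and Efna5 (−0.96 ± 0.22) did not pass without several single arrays, among them knockdown 0 h replicate 1 (0.0846 and 0.0794).

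Genes that fell less in the knockdown included some members of the naive and signalling lists. Positive and negative differences numbered 3 and 0 among 28 pluripotency genes, 4 and 0 among 16 BMP and TGF-beta genes, and 2 and 1 among 10 LIF-Stat3 genes. Among 16 FGF-ERK genes they numbered 1 and 2, and among 31 immediate early factors 2 and 6. Of all genes 2.45% were positive and 1.01% negative. Bmp4 read 11.28 and 11.27 at 0 h and 8.41 and 8.12 at 8 h in scramble, a change of −3.00 against −1.93 in the knockdown (difference 1.08 ± 0.19, adjusted p = 0.00988), and began 1.28 lower in the knockdown. Klf4 read 9.83 and 9.93 at 0 h and 7.84 and 7.73 at 8 h in scramble, −2.10 against −1.06 (difference 1.03 ± 0.14, adjusted p = 0.00262). For both genes the knockdown started below scramble, and the 8 h levels lay nearer than the 0 h levels. Fgf4 changed by −2.21 in scramble (difference 0.90, adjusted p = 0.00447), Klf2 by −1.90 (0.82, 0.00415), Tbx3 by −1.46 (0.82, 0.00408) and Socs3 by −1.77 (0.72, 0.00537). Id2 (difference 0.49, adjusted p = 0.00912), Mcl1 (0.55, 0.00262) and Wtap (0.74 ± 0.09, 0.00124) likewise fell less. Socs3 and Mcl1 did not pass when the probe sets of a gene were averaged (adjusted p = 0.0694 and 0.0812). Sox2, Myc, Dusp6 and Nodal did not pass this test.

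S1pr2, Phospho2, Chst12 and Rpp25l fell in scramble, whereas in the knockdown S1pr2 fell less, Phospho2 rose as deposited, and Chst12 and Rpp25l did not pass as deposited and were called lower under the equal-median scaling. S1pr2, a receptor for sphingosine phosphate, began at 9.46 and 9.68 in the knockdown and 9.70 and 9.71 in scramble, and ended at 8.94 and 9.04 against 8.03 and 7.85 (difference 1.19 ± 0.11, adjusted p = 0.00029). Phospho2, a phosphatase, read 8.71 and 8.77 and then 9.01 and 8.97 in the knockdown, and 8.40 and 8.43 and then 7.60 and 7.52 in scramble (1.11 ± 0.09, adjusted p = 0.000202). Its rise in the knockdown was lost under the equal-median scaling, and the difference from scramble was not. Chst12, a chondroitin sulfotransferase, read 7.99 and 8.18 and then 8.09 and 7.87 in the knockdown, and 7.87 and 7.90 and then 6.65 and 6.78 in scramble (1.07 ± 0.15, adjusted p = 0.00348). Rpp25l, a relative of an RNase P subunit, stayed at 8.85 to 8.95 in the knockdown and went from 8.74 and 8.74 to 7.62 and 7.66 in scramble (1.05 ± 0.11, adjusted p = 0.000459). These 4 genes had 8 h knockdown arrays above both 8 h scramble arrays, which their choice by a large positive difference makes likely. How many of all genes had the same was not counted. Nanp, a sialic acid phosphatase, also had a positive difference (1.82 ± 0.33, adjusted p = 0.0111), from 7.84 and 8.15 to 7.03 and 6.52 in the knockdown and from 8.18 and 7.66 to 4.90 and 4.85 in scramble. The scramble 8 h signals lay below 6.07, the lowest mean of any tested gene, so the size of the difference is uncertain. It did not pass without knockdown 0 h replicate 1 (adjusted p = 0.0523), knockdown 8 h replicate 1 (0.0515) or scramble 0 h replicate 1 (0.0512). Hmgn5 (1.16 ± 0.27), which rose in the knockdown (1.25 ± 0.19), and Zscan12 (1.14 ± 0.27) did not pass without several single arrays, among them knockdown 8 h replicate 1 (0.124 and 0.138).

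**Figure D5:**
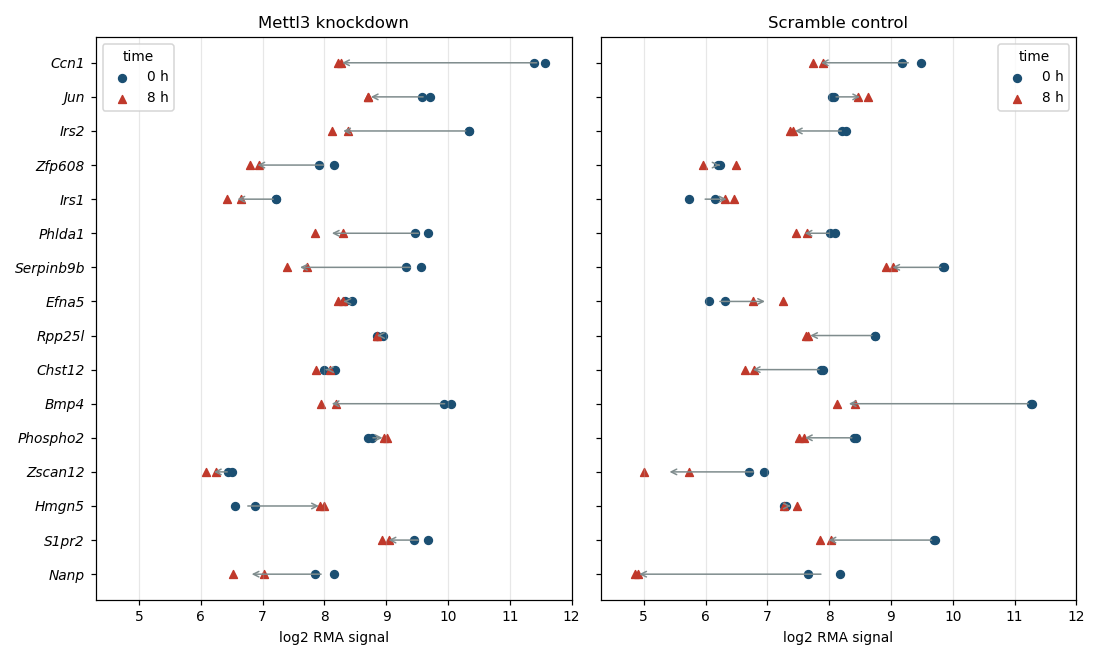
Log2 RMA signal (x axis) of 16 genes with the largest called differences between the 8 h change in the Mettl3 knockdown (left) and in scramble (right), with circles for 0 h arrays, triangles for 8 h arrays and an arrow from the 0 h mean to the 8 h mean. The arrows of Jun point to opposite sides in the 2 panels, and those of Chst12 and Rpp25l are short in the knockdown and long in scramble.

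The Mettl14 knockdown, which removes the partner of Mettl3 in the same complex and shares no array with the comparison, gave 5457 rises (36.9%) and 2836 falls (19.2%) between 0 h and 8 h. Of the 2800 falls in the Mettl3 knockdown 87.3% were also falls there, which was 86.2% of the Mettl14 falls. Of its rises 84.9% were shared, 85% of the Mettl14 rises. Falls of at least 2-fold in the Mettl14 knockdown were 3.78% of genes tested, and those in both knockdowns numbered 460, or 88.1% of those with Mettl3 depleted and 82.3% of those with Mettl14 depleted. The 8 h change did not differ between the knockdowns for any gene by limma with Benjamini-Hochberg adjustment (0 positive and 0 negative, smallest adjusted p 0.0509), although 334 were positive and 455 negative at an unadjusted p under 0.05, and limma with a trended and robust prior called 7 and 6. Leaving out Mettl14 8 h replicate 2 gave 4 positive and 1 negative. That absence of calls does not show that the knockdowns act alike.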

How the data were processed

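The deposited values were log2 RMA signals of Affymetrix Mouse Gene 2.0 ST arrays, summarised and normalised by the authors with RMA in oligo, per the submitters' processing notes. Versions, the genome build and whether all 26 arrays were normalised together are not given in the sources used here. RMA is meant to equalise the arrays, so a change is relative to the other genes. The deposited arrays were not fully equal. In the Mettl3 knockdown the median of all probe sets was 6.49 and 6.49 at 0 h and 6.28 and 6.32 at 8 h. The mean of the tested genes was 8.45 and 8.46 at 0 h and 8.49 and 8.49 at 8 h. Of 41345 probe sets, 23521 had 1 gene symbol in the platform annotation, 1814 had several and 16010 were not listed. A gene was read by its probe set with the highest mean over the 18 time course arrays (22180 genes, 1082 with several probe sets), and the dimmest 0.333 of genes (7393) were left out, which left 14787 with a mean of at least 6.07.

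Groups came from the labels. limma 3.58.1 in R 4.3.3 (lmFit, contrasts.fit, eBayes) was fitted to the 18 arrays in 9 groups with 9 residual degrees of freedom, with Benjamini-Hochberg adjustment over all tested genes at 0.05, and was tested on simulated data with 200 changed genes. The number of arrays limits the precision: the median standard error of the 8 h change was 0.0882. Named genes were the 12 largest non-overlapping rises and falls past the threshold, all members of the first 6 lists, up to 4 members of each other list by smallest adjusted p, the 8 largest differences of each sign, and a fixed set of controls. Some further list members were named after their values were seen. The arrays compared, the 29 gene lists and the symbol classes were chosen with earlier results of these data known. Sequences came from the labels and RefSeq (GRCm38.p6). Alternatives changed the filter, probe set rule, spread, weights, scaling and arrays.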

Additional observations from a re-analysis of the deposited data

Results flagged for a closer look

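These genes changed differently between 0 h and 8 h in the Mettl3 knockdown and in scramble, by limma's test of the difference itself. Values are the log2 change in the knockdown minus that in scramble. Negative differences were found for Ccn1 (−1.74), Jun (−1.43), Irs2 (−1.23), Zfp608 (−1.18), Irs1 (−1.12), Phlda1 (−1.01), Serpinb9b (−1.002) and Efna5 (−0.96). Smaller ones were found for Ier3 (−0.85), the probe set of Mettl3 and Tox4 (−0.75), Zic2 (−0.70), Dusp1 (−0.65), Ccn2 (−0.65), Fosl2 (−0.57), Pou3f1 (−0.54), Dusp5 (−0.53), Btg2 (−0.51) and Stat3 (−0.42). Positive differences were found for Nanp (1.82), S1pr2 (1.19), Hmgn5 (1.16), Zscan12 (1.14), Phospho2 (1.11), Bmp4 (1.08), Chst12 (1.07), Rpp25l (1.05) and Klf4 (1.03). Smaller ones were found for Fgf4 (0.90), Klf2 (0.82), Tbx3 (0.82), Wtap (0.74), Socs3 (0.72), Mcl1 (0.55), Id2 (0.49), Smad6 (0.48), Il6st (0.30) and Tgif1 (0.30). Of the genes given here other than the probe set of Mettl3 and Tox4, 36 in all, 25 did not pass under at least 1 alternative.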

How the results depend on the processing

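The counts of rises and falls between 0 h and 8 h in the Mettl3 knockdown stayed within 1.5 times of 5467 and 2800 under every alternative except the equal median of glycolysis and cytoskeleton genes (1778 and 4650). That scaling gave 880 and 3230 for 4 h against 0 h, and 1373 and 5340 for the knockdown against scramble at 0 h. Rises between 4 h and 8 h were 73 with no filter on dim genes, 423 with more genes left out as dim, 520 with a trended and robust prior, 317 with array weights, 387 after another quantile normalization, 32 with the equal median, 522 with all 26 arrays and 5 with only the groups compared, where falls were 158. Leaving out 1 array gave 32 to 90 rises and 422 to 662 falls. For the difference from scramble, positive calls were 181 with no filter, 658 with 26 arrays, 45 with only the groups compared and 165 to 476 without 1 array. Negative calls were 70 with no filter, 243 with the trended and robust prior, 39 with the equal median, 310 with 26 arrays, 8 with only the groups compared and 57 to 153 without 1 array. For the difference from the Mettl14 knockdown, positive and negative calls were 3 and 2 with more genes left out as dim, 7 and 6 with the trended and robust prior, 3 and 2 after another quantile normalization, 5 and 6 with 26 arrays, and 0 to 4 and 0 to 1 without 1 array. Of 233 named genes, 28 lost a call at 8 h against 0 h under some alternative, 14 of them without some array, and 23 gained one. Signs turned for Jund (0.19), Etv5 (0.0021) and Ythdf1 (0.087) with probe sets averaged, and for Dppa2 (−0.21), Tdgf1 (−0.21) and Trim28 (−0.092) with the equal median. The replicate numbers did not pair the samples: deviations of same-numbered arrays correlated at −0.445 to 0.337, over 0.1 in 12 of 36 pairs of groups. The replicate block gave 5420 rises and 2779 falls at 8 h against 0 h and 344 and 130 for the difference from scramble, and there Hmgn5 (adjusted p = 0.0535) and Btg2 (0.055) did not pass. The causes were not tested.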

Other observations

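Probe sets with no gene in the platform annotation numbered 16010, of which 6521 were as bright as the tested genes. Fitted in the same way, 1087 of these rose between 0 h and 8 h in the Mettl3 knockdown (16.7%), 1929 fell (29.6%) and 1160 fell by at least 2-fold, with a median change of −0.10. They are unnamed here, and what they measure was not tested.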
